A study of Mus musculus with 6 samples.

Results

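The genes described here are 8 regulators of sensory neurogenesis and its outcome: the proneural factors Neurog1 and Neurog2, the factors Neurod1 and Neurod4 that act after them, the sensory neuron factors Pou4f1, Isl1 and Prdm12, and Ntrk3, which encodes the neurotrophin receptor TrkC. They were taken by symbol from the 46983 genes of the count table, and all 8 had a row and passed the filter on low counts. RNA had been sequenced from GFP-positive neural crest cells (NCCs) sorted from mouse embryos at E11.25, in 3 control libraries and 3 libraries deficient in BAF155 and BAF170. Embryos of both groups carried the Wnt1 Cre/+ driver and the Rosa26 mTmG/+ reporter, which switches on GFP where Cre has acted. The controls were flox/+ for BAF155 as well as BAF170, and the deficient embryos were flox/flox for each, so the controls had already lost 1 copy of each of Smarcc1 (BAF155) and Smarcc2 (BAF170), which encode core subunits of the SWI/SNF chromatin remodelling complex BAF. Wnt1-Cre is active in the dorsal neural tube as well as in the neural crest, so sorted GFP-positive cells can include both. The comparison asks how the second copies of both subunits bear on these genes. Per the methods, cells were collected from 3 control and 3 deficient embryos, and the p-values measure the spread between these libraries.

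In the neural crest and the cranial placodes, Neurog1 and Neurog2 start sensory neuron formation. These basic helix-loop-helix factors pair with E proteins, bind short DNA words called E-boxes (CANNTG) and switch on Neurod factors, and the young neurons then express Pou4f1 (Brn3a) and Isl1, which together set up the sensory programme and close the earlier one. Maturing sensory neurons divide by the Trk receptor they keep: Ntrk2 (TrkB) marks mechanoreceptors and Ntrk3 (TrkC) proprioceptors and some mechanoreceptors, and Prdm12 is required for nociceptors. Several of these genes also act in the neural tube, in placodes and in other neurons, so a read from them does not name a cell of origin.

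The DNA before the start sites is shown for 2 pairs of genes, Pou4f1 with Isl1 and Neurod1 with Neurod4. The levels within each pair ran closely together over the libraries, as did those of other pairs of the 8. The 250 bases before the RefSeq start lie on the minus strand of GRCm38.p6 at chr14:104468000-104468249 (Pou4f1), chr13:116309689-116309938 (Isl1), chr2:79456637-79456886 (Neurod1) and chr10:130280255-130280504 (Neurod4). They are printed 5′ to 3′ in the direction of the gene, with every CANNTG in capitals.
Pou4f1: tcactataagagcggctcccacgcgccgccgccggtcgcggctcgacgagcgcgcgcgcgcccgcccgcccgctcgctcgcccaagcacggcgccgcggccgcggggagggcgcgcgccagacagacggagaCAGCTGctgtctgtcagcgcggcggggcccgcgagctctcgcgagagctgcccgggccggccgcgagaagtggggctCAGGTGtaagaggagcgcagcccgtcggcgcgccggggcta
Isl1: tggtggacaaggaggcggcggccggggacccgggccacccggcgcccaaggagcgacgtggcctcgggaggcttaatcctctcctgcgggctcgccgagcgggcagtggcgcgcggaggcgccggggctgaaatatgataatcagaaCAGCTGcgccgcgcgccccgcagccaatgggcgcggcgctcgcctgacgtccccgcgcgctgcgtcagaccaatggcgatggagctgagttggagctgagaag
Neurod1: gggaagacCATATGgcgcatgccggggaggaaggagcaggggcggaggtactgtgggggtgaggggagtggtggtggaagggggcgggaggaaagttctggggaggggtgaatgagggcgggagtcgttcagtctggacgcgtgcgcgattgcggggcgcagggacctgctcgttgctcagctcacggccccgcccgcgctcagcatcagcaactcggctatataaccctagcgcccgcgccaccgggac
Neurod4: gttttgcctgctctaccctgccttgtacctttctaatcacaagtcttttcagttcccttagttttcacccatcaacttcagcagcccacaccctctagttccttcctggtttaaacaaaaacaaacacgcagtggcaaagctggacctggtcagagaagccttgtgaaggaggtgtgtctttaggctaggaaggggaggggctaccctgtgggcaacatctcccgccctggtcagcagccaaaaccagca
CAGCTG stands 118 bases before the start of Pou4f1 and 103 bases before that of Isl1, Pou4f1 has a second word, CAGGTG, 41 bases before its start, and Neurod1 has CATATG 242 bases before its own. No CANNTG occurs in this stretch of Neurod4. RefSeq windows from 250 bases before to 50 after the start were at hand for 7 of the 8 genes, with Neurod4 taken at the start nearest to the annotated gene, and Ntrk3 had none. Searched on both strands, CANNTG was present in 4 of these 7 windows (the fourth is CACTTG at base 5 of the Neurog1 transcript) and in 72.3% of all 32841 windows of this length. CAGCTG, which is one of the CANNTG words, was present in 2 of the 7 and in 16.3% of all windows, and CAGATG in 0 of the 7 and in 17.2%. These are matches of letters, with no measurement of binding.

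Counts on genes summed to between 8191219 and 11661941 in the control libraries and between 12633319 and 19808620 in the deficient ones, so every deficient library was the deeper. The 8 genes together had between 302 and 497 counts in a control library and between 304 and 358 in a deficient one, and the counts of single genes were low enough for counting error to matter. Levels are given as CPM, counts scaled to TMM-normalized library sizes. Smarcc1 lay between 35.0 and 54.9 CPM in the controls and between 24.4 and 29.3 CPM in the deficient libraries, and was called lower (log2 fold change −0.71, edgeR quasi-likelihood test, Benjamini-Hochberg adjusted p = 0.0676). With libraries scaled to embryonic markers, as described further on, that value was 0.10, and the call was lost with control replicate 1 or 2 or deficient replicate 2 or 3 left out, with log2 fold changes between −0.74 and −0.53, and with the correction for gene length (−0.57). Smarcc2 had 91.3 ± 1.51 and 84.8 ± 2.37 CPM and did not pass (log2 fold change −0.11, edgeR, Benjamini-Hochberg adjusted p = 0.251). Counts cover the whole gene, and exons outside the deleted part are counted in both groups. Of 9 sensory neuron markers, 4 that mark more mature neurons (Isl2, Prrxl1, Avil and Prph) had control means between 0.330 and 0.818 CPM and lower means in the deficient libraries, so these markers were near 0 in both groups. The 12 macrophage markers were present in every library, Cx3cr1 at a low level with means of 4.03 and 4.71 CPM in the 2 groups and the others far above the 8 genes, summing to between 12088 and 13985 CPM in the controls and between 14142 and 15452 CPM in the deficient libraries, while 43 markers of mesenchymal crest, glial crest, autonomic and neural tube cells summed to between 388 and 633 CPM in the controls and between 255 and 344 CPM in the deficient libraries.

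Summed over the 8 genes, the levels reached 37.6, 66.3 and 24.7 CPM across control replicates 1 to 3, against 23.8, 19.9 and 17.0 CPM across deficient replicates 1 to 3. All 8 genes had a negative log2 fold change, with a median of −1.35 against −0.02 over all 13961 genes tested. They were chosen with earlier results of these data known, so the comparison with all tested genes does not test them as a set. Calls were made where the adjusted p did not exceed 0.1, the log2 fold change was 0.58 or more in size and the mean level reached 2 CPM. By this rule 2 of the 8, Isl1 and Neurod4, were called lower, where 4.88% of all tested genes were. By adjusted p alone Prdm12 was added, making 3 of 8 against 7.75% of all tested genes (edgeR quasi-likelihood test, Benjamini-Hochberg). Every deficient library lay below every control library for 4 of the 8 (Neurod1, Neurod4, Prdm12 and Ntrk3), against 16.4% of all tested genes. In bulk RNA, fewer cells of a type and less RNA per cell cannot be told apart.

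**Figure D1:**
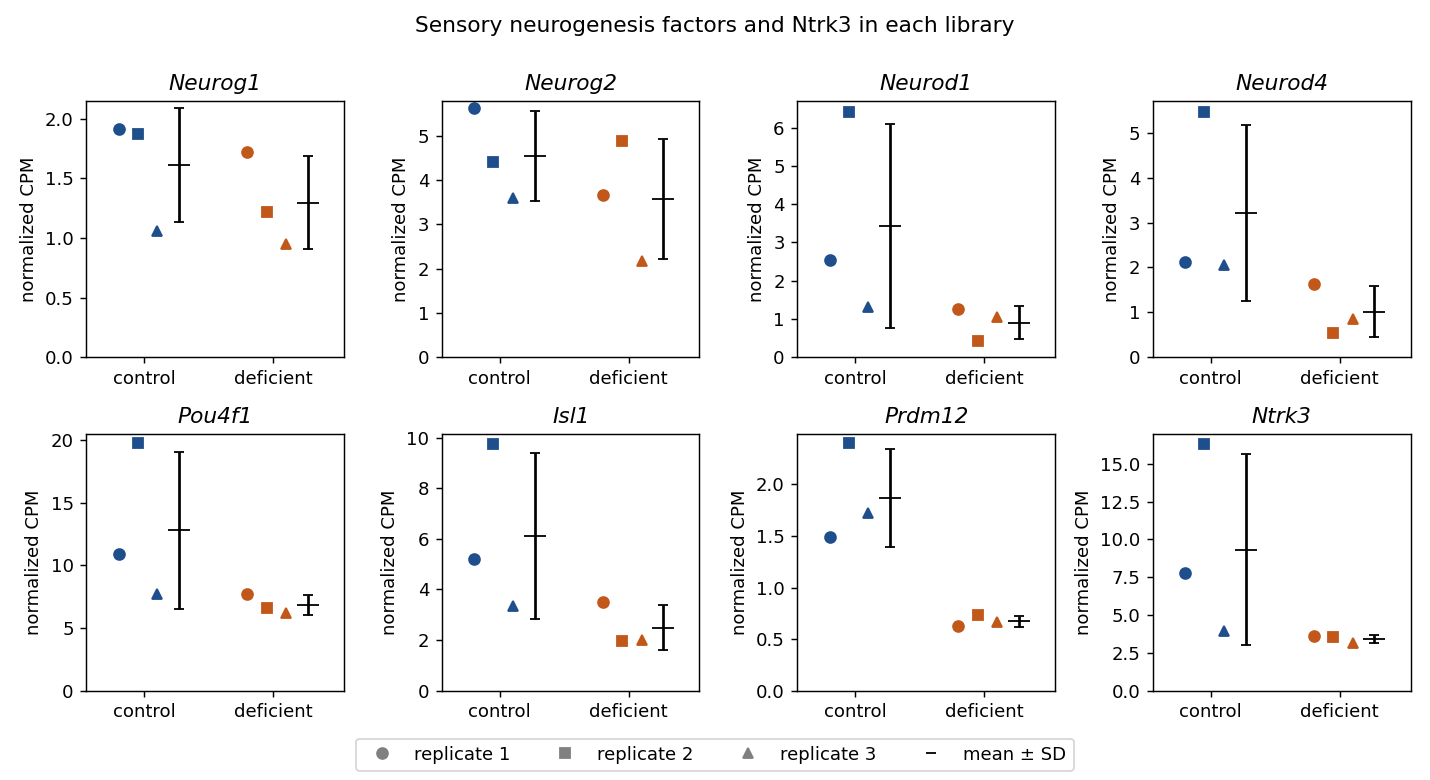
Level of each of the 8 genes in each library, in CPM on normalized library sizes (linear axes from 0, a scale for each gene). Blue points are control and orange points deficient libraries, shapes give the replicate number, and the bar is the mean ± SD of 3 libraries. Control replicate 2 is the highest library for 6 of the 8 genes, and the 2 groups are apart for Neurod1, Neurod4, Prdm12 and Ntrk3.

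The 2 neurogenins, which begin the cascade, had the smallest differences of the 8. Neurog1 (ENSMUSG00000048904.4, chromosome 13 from 56250478 to 56252163 on the minus strand) measured 1.91, 1.87 and 1.06 CPM across control replicates 1 to 3, against 1.72, 1.22 and 0.947 CPM across deficient replicates 1 to 3, from 13 to 22 counts a library. The groups overlapped, with deficient replicates 1 and 2 above control replicate 3. Its log2 fold change was −0.32 (95% interval −1.20 to 0.56, edgeR quasi-likelihood test, Benjamini-Hochberg adjusted p = 0.650). Neurog2 (ENSMUSG00000027967.8, chromosome 3 from 127633135 to 127635631 on the plus strand) measured 5.62, 4.40 and 3.60 CPM across the controls, against 3.67, 4.88 and 2.18 CPM across the deficient libraries. Deficient replicate 2 was above all but 1 control library, and only deficient replicate 3 fell below every control. The log2 fold change of Neurog2 was −0.35 (95% interval −1.04 to 0.34, edgeR quasi-likelihood test, Benjamini-Hochberg adjusted p = 0.504). Both intervals are wide and include 0, so neither a lower nor an equal level is shown for the neurogenins. Neurog1 varied among the controls by 29.5% (SD over mean), where counting alone gives 25.8%.

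Neurod1 and Neurod4, which are induced by neurogenins and carry neuronal differentiation forward, had the largest differences of the 8 with all libraries in the fit. Without control replicate 2 both had a log2 fold change of −1.07, and Prdm12 had the largest, −1.24. Differences between the genes were not tested. Neurod4 (ENSMUSG00000048015.3, chromosome 10 from 130268152 to 130280240 on the minus strand) measured 2.12, 5.47 and 2.05 CPM across the controls, against 1.64, 0.549 and 0.853 CPM across the deficient libraries. It was called lower, with a log2 fold change of −1.66 (SE 0.507, edgeR quasi-likelihood test, Benjamini-Hochberg adjusted p = 0.0919). The groups did not overlap, and deficient replicate 2 had 9 counts against 41 in control replicate 2, although it was the deeper library. Neurod1 (ENSMUSG00000034701.9, chromosome 2 from 79452521 to 79456751 on the minus strand) measured 2.55, 6.41 and 1.31 CPM across the controls, against 1.25, 0.427 and 1.04 CPM across the deficient libraries. Its groups were apart only by the gap between 1.31 CPM in control replicate 3 and 1.25 CPM in deficient replicate 1. The log2 fold change of Neurod1 was −1.86 (SE 0.612), the largest of the 8, and it did not pass (edgeR quasi-likelihood test, Benjamini-Hochberg adjusted p = 0.104). For both genes the controls spread far beyond counting error, by 77.7% for Neurod1 against 18.5% from counting and by 60.9% for Neurod4 against 18.7%. The exact permutation test over libraries gave p = 0.1 for each, the smallest that 3 against 3 allows. Cerkl, a protein coding gene on the same strand, overlaps Neurod1 and had 24 counts over all libraries. How reads shared by Cerkl and Neurod1 were counted is not given in the sources used here.

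Pou4f1 and Isl1, the pair of homeodomain factors of young sensory neurons, stood between the neurogenins and the Neurod genes. Pou4f1 (ENSMUSG00000048349.9, chromosome 14 from 104461676 to 104467999 on the minus strand), the most abundant of the 8 per library, measured 10.9, 19.8 and 7.70 CPM across the controls, against 7.73, 6.58 and 6.16 CPM across the deficient libraries. Control replicate 3 and deficient replicate 1 were at nearly the same level, and the deficient libraries lay close together while the controls did not. The log2 fold change of Pou4f1 was −0.89 (SE 0.320, 95% interval −1.63 to −0.15) and did not pass after adjustment (edgeR quasi-likelihood test, Benjamini-Hochberg adjusted p = 0.128). Isl1 (ENSMUSG00000042258.13, chromosome 13 from 116298281 to 116309689 on the minus strand) measured 5.20, 9.74 and 3.36 CPM across the controls, against 3.52, 1.95 and 1.99 CPM across the deficient libraries. Deficient replicate 1 again lay just above control replicate 3, and the other deficient libraries were lower. Isl1 was called lower, with a log2 fold change of −1.28 (SE 0.405, edgeR quasi-likelihood test, Benjamini-Hochberg adjusted p = 0.0965). The exact permutation test over libraries gave p = 0.2 for either gene. Isl1 is also used by motor neurons and by other derivatives of the crest.

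Prdm12, a zinc finger regulator needed for pain-sensing neurons, gave the widest gap between the groups, relative to their spread, at the lowest mean level of the 8. The gene (ENSMUSG00000079466.2, chromosome 2 from 31640037 to 31655795 on the plus strand) measured 1.49, 2.40 and 1.72 CPM across the controls, against 0.625, 0.731 and 0.663 CPM across the deficient libraries, or 14, 18 and 21 counts against 8, 12 and 14. The highest deficient library was well under the lowest control. Its log2 fold change was −1.44 (SE 0.391, edgeR quasi-likelihood test, Benjamini-Hochberg adjusted p = 0.0773), and it was not called because its mean of 1.27 CPM is under the level the rule asks for. An antisense gene, Gm13425, overlaps Prdm12 and had 37 counts over all libraries, and the strand setting of the counting is not given in the sources used here, so reads of the pair may not be fully separated.

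Ntrk3 was the only Trk receptor gene among the 8. It (ENSMUSG00000059146.12, chromosome 7 from 78175959 to 78738012 on the minus strand) measured 7.75, 16.3 and 3.93 CPM across the controls, against 3.59, 3.54 and 3.13 CPM across the deficient libraries. The deficient libraries were nearly alike, and control replicate 3 was barely above them. The log2 fold change was −1.41 (SE 0.480) and did not pass (edgeR quasi-likelihood test, Benjamini-Hochberg adjusted p = 0.120, exact permutation p = 0.1). Ntrk2, the TrkB gene, measured 4.14, 4.14 and 3.44 CPM across the controls, against 1.56, 3.78 and 1.47 CPM across the deficient libraries, with overlap at deficient replicate 2. Its log2 fold change was −0.77 (edgeR quasi-likelihood test, Benjamini-Hochberg adjusted p = 0.199). Ngfr, which encodes the shared neurotrophin receptor p75 and is also a marker of early crest and glia, measured 5.31, 9.08 and 2.70 CPM across the controls, against 1.48, 1.22 and 1.37 CPM across the deficient libraries. Ngfr was the 1 gene called of the 3 tested in a list of 8 Trk, p75 and neurotrophin genes, with a log2 fold change of −2.03 (SE 0.410, edgeR quasi-likelihood test, Benjamini-Hochberg adjusted p = 0.0534). The share of all tested genes called lower was 4.88%. Ngfr lost its call with control replicate 1 (edgeR, Benjamini-Hochberg adjusted p = 0.214), control replicate 2 (0.130) or deficient replicate 3 (0.173) left out, with log2 fold changes of −2.07, −1.54 and −2.04. The neurotrophin genes Bdnf, Ntf3 and Ntf5 had at most 1.06 CPM in any library and were not tested.

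Per kilobase of annotated exon, the order of the control levels was Pou4f1 (2.74 ± 1.34 CPM per kb, SD, n = 3), Neurog2 (2.04 ± 0.457), Isl1 (1.54 ± 0.830), Neurod1 (1.25 ± 0.974), Neurod4 (0.961 ± 0.585), Neurog1 (0.957 ± 0.283), Prdm12 (0.756 ± 0.193) and Ntrk3 (0.309 ± 0.210). Each neighbouring pair in this order differed by less than the sum of its SDs except Prdm12 and Ntrk3. In the deficient libraries Neurog2 stood first at 1.61 ± 0.607 CPM per kb, followed within the spread by Pou4f1 at 1.46 ± 0.175. Neurog1 at 0.768 ± 0.232 and Isl1 at 0.628 ± 0.226 lay beyond the spread of these and within that of each other. Neurod1 (0.332 ± 0.157), Neurod4 (0.303 ± 0.169) and Prdm12 (0.272 ± 0.0218) followed within their spread, and Ntrk3 was last, beyond the spread of Prdm12, at 0.113 ± 0.00845. The place of Ntrk3 depends on its annotated exon length of 30170 bases, which joins the exons of all its isoforms.

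Ratios between genes within a library do not depend on how libraries are scaled. The summed counts of Neurod1 and Neurod4 were 0.620, 1.89 and 0.719 of those of Neurog1 and Neurog2 in control replicates 1 to 3, and 0.536, 0.160 and 0.606 in deficient replicates 1 to 3. The groups did not overlap, though the highest deficient and the lowest control ratio were close. Relative to Pou4f1 and Isl1, Neurod1 and Neurod4 were at 0.289, 0.403 and 0.304 in the controls and at 0.257, 0.114 and 0.233 in the deficient libraries, again without overlap. The ratio of Pou4f1 and Isl1 to the neurogenins did overlap, at 2.14, 4.70 and 2.37 in the controls and 2.09, 1.40 and 2.61 in the deficient libraries. Ntrk3 over the neurogenins also overlapped, with control means of 1.49 ± 0.963 and deficient means of 0.749 ± 0.222 (SD, n = 3). Isl1 over Pou4f1 was steady in the controls, at 0.476, 0.493 and 0.436, and was 0.455, 0.296 and 0.323 in the deficient libraries. Of these ratios, the 2 with the Neurod genes on top were thus lower in every deficient library. They are given without a test, as 10 ratios were computed in all.

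**Figure D2:**
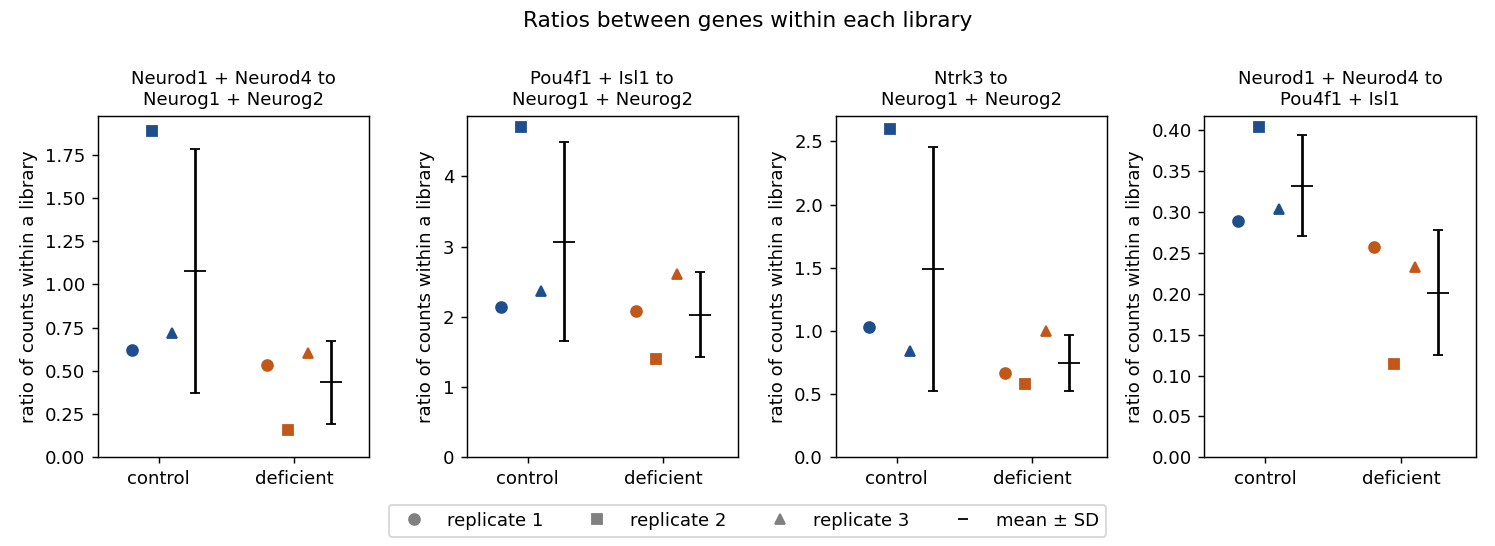
Ratios of summed counts between members of the cascade within each library (linear axes from 0), with control libraries in blue, deficient libraries in orange, shapes for the replicate number and the mean ± SD of 3 libraries. The groups are apart in the first panel (deficient at most 0.606, control at least 0.620) and in the last, and overlap in the other 2.

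The 8 genes did not vary alone over the libraries. Control replicate 2 was the highest library for 6 of them and control replicates ranked 2, 1, 3 from high to low for 5. The 43 markers of mesenchymal crest, glial crest, autonomic and neural tube cells had the same order, with sums of 481, 633 and 388 CPM across control replicates 1 to 3 against 344, 281 and 255 CPM across deficient replicates 1 to 3. Divided by these markers within a library, the 8 genes stood at 0.0781, 0.105 and 0.0637 in the controls and at 0.0690, 0.0706 and 0.0665 in the deficient libraries. On this ratio the groups overlapped. The 13 neural tube markers summed to 129, 149 and 89.6 CPM across the controls, against 98.4, 81.3 and 55.1 CPM across the deficient libraries. Of these, 1 of the 11 tested was called lower (Nes, picked for naming with its value known). Among mesenchymal crest markers 9 of the 15 tested were called lower, with a median of −0.99 on the log2 scale. For 12 of these 15, every deficient library lay below every control library. Called lower were also 1 of 5 tested glial crest and 0 of 4 tested autonomic markers, against 4.88% of all tested genes. Among 7 erythroid markers, whose sum was 25.4, 66.5 and 16.0 CPM across the controls and between 9.08 and 15.1 CPM across the deficient libraries, control replicate 2 was also the highest. The 12 macrophage markers ran the other way, with every log2 fold change between 0.15 and 0.21 and the lowest sum, 12088 CPM, in control replicate 2. The part of these other cell types in the differences of the 8 genes was not tested.

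Scaling each library to the median level of 25 of these embryonic markers, none of them sensory, moved the median of all tested genes, on the log2 scale, from −0.02 to 0.77. On this scale Neurog1 (0.46) and Neurog2 (0.42) had positive and the other 6 genes negative values, from −0.02 for Pou4f1 to −0.95 for Neurod1, with a median of −0.47 over the 8, and none of the 8 was called (edgeR quasi-likelihood test; 1 of 8 had an unadjusted p under 0.05, and DESeq2 and limma-voom on their own scaling called 5 and 1). Neurod1 had an adjusted p of 0.0664 on this scale (edgeR, Benjamini-Hochberg) and fell short of a call by its mean level. Relative to the shifted median of all genes, Neurod1 was at −1.72, Neurod4 at −1.60, Prdm12 at −1.40, Ntrk3 at −1.27, Isl1 at −1.21, Pou4f1 at −0.79, Neurog2 at −0.35 and Neurog1 at −0.31. This scaling removes whatever change the markers share. It applies the same factor to all genes of a library, and taking values relative to the shifted median largely undoes it. The order of the 8 genes, the same as on TMM-normalized counts, therefore follows from the method and is no separate result.

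**Figure D3:**
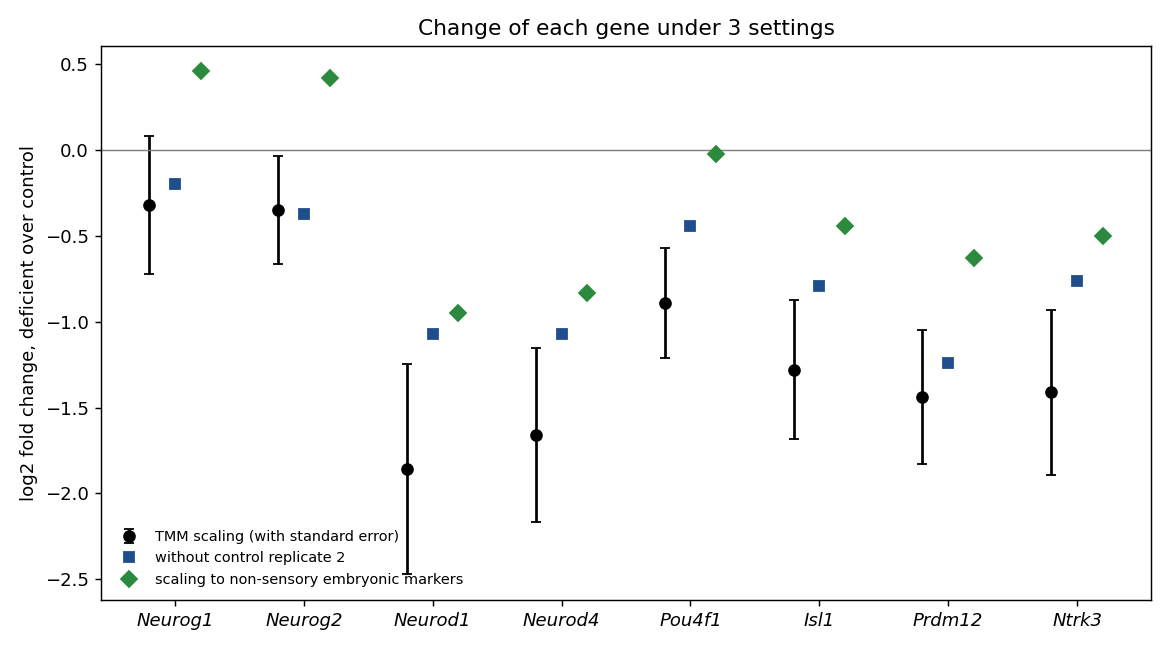
Log2 fold change of each gene, deficient over control, as fitted on TMM-normalized counts (black, with the standard error), without control replicate 2 (blue) and scaled to the embryonic markers (green). Values without control replicate 2 run from −1.24 to −0.20. The marker scaling moves the median of all genes to 0.77, which carries Neurog1 and Neurog2, the nearest to 0, to positive values and Pou4f1 to −0.02.

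The calls also rested on single libraries. Isl1 and Neurod4 both lost their calls in 4 of the 6 fits that left out a library (control replicate 1 or 2, deficient replicate 2 or 3), where none of the 8 was called by edgeR's quasi-likelihood test, though 6, 4, 4 and 4 of the 8 had an unadjusted p under 0.05. In the same 4 fits the number of all genes called lower fell from 681 to 0 of 14318, 61 of 14305, 219 of 14319 and 17 of 14280, and the log2 fold change lay between −1.38 and −0.79 for Isl1 and between −1.88 and −1.07 for Neurod4. Without control replicate 3, the lowest control for 7 of the 8 genes, 5 were called, and 1219 of all 14430 genes tested. Without control replicate 2 the median of the 8 was −0.77 and Ntrk3 moved to −0.76, Pou4f1 to −0.44, Isl1 to −0.79, Neurod4 to −1.07 and Neurod1 to −1.07, and Prdm12 from −1.44 to −1.24. All 8 values stayed negative with each library left out. For Isl1 the Benjamini-Hochberg adjusted p ran from 5.22e-04 to 0.312 over 16 alternatives, for Neurod4 from 0.00186 to 0.302 and for Prdm12, over 15 alternatives, from 0.0298 to 0.263 (edgeR, DESeq2 and limma).

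Other genes of the pathway were taken from lists chosen with earlier results of these data known. Of 21 further transcription factors of the sensory lineage, 17 were tested, with a median of −1.03 on the log2 scale. Against 4.88% of all tested genes, 10 of the 17 were called lower. Among those called were the placode and early sensory factors Six4 (−1.39) and Eya1 (−0.81), the zinc finger factors Insm1 (−0.81) and Myt1 (−1.48), the helix-loop-helix factors Nhlh1 (−1.01), Nhlh2 (−1.29), Ebf2 (−1.21) and Ebf3 (−1.56), and Shox2 (−1.59), which is needed for touch neurons. Ebf3 went from 20.1 ± 7.64 to 6.79 ± 1.12 CPM (SD, n = 3; edgeR quasi-likelihood test, Benjamini-Hochberg adjusted p = 0.0483). The 2 tested genes with a positive value were Runx1 (0.09) and Runx3 (0.23), neither of which passed, and which are named here as exceptions after their values were seen. Both also act in blood cells. Without control replicate 1, without control replicate 2, without deficient replicate 2 and without deficient replicate 3, the number called was 0 (11 with an unadjusted p under 0.05 by edgeR), 2, 2 and 1.

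Genes that respond to neurogenins behaved unevenly. Of 7 such genes, 2 were called lower: Dll3, a Notch ligand family member (log2 fold change −1.05), and Mfng, a glycosyltransferase that modifies Notch (−1.51), with a median of −0.99 over the 7. By the same rule 4.88% of all tested genes were called lower. Rcor2 (−0.99), a corepressor subunit, did not pass. Dll1, the Notch ligand through which neurogenic cells signal to their neighbours, stood at 10.3 ± 3.08 CPM in the controls, against 9.20 ± 2.55 CPM in the deficient libraries (SD, n = 3), and its log2 fold change of −0.16 did not pass (edgeR quasi-likelihood test, Benjamini-Hochberg adjusted p = 0.736). Gadd45g had 0.21 and did not pass. With control replicate 1 or 2 or deficient replicate 3 left out, none of the 7 was called by edgeR, where 3, 3 and 4 had an unadjusted p under 0.05, and 1 was called with deficient replicate 2 left out.

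The E proteins are the partners of neurogenin and Neurod factors, and the Id proteins block that pairing. Of these genes 7 were tested and, against 4.88% of all tested genes, 1 was called lower. This was the E protein gene Tcf3, at 31.4 ± 4.04 CPM in the controls and 20.8 ± 2.40 CPM in the deficient libraries (SD, n = 3; log2 fold change −0.59, edgeR quasi-likelihood test, Benjamini-Hochberg adjusted p = 0.0483). The value of Tcf3 is close to the fold change the rule asks for, and the count was 0 by DESeq2, which gave 3 of the 7 an unadjusted p under 0.05. The count was also 0 with control replicate 1 or 2 or deficient replicate 2 or 3 left out, each with 2 of the 7 at an unadjusted p under 0.05 by edgeR. Tcf12 (−0.49), Id1 (−0.17), Id3 (−0.17) and Id2 (0.15) did not pass, and the median of the 7 was −0.17. Id4 had the largest value of the 7 and is named for that with its value known: its log2 fold change was −1.51, its groups did not overlap and its adjusted p was 0.0794 (edgeR quasi-likelihood test, Benjamini-Hochberg), and it was not called because its mean level was under 2 CPM.

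Early neuron products had the lowest median of the companion lists. Of 18 listed genes 12 were tested, with a median of −1.47 on the log2 scale. Against 4.88% of all tested genes, 8 genes of this list were called lower. They were the microtubule proteins Dcx (−1.75) and Stmn2 (−1.66), the RNA-binding protein Elavl4 (−1.15), the neurofilament and intermediate filament genes Nefl (−1.66), Nefm (−1.35) and Ina (−1.75), the growth cone protein Gap43 (−1.43) and the axonal adhesion molecule Cntn2 (−1.85). Cntn2 had 42.9 ± 21.1 CPM in the controls and 11.8 ± 2.91 CPM in the deficient libraries (SD, n = 3; edgeR quasi-likelihood test, Benjamini-Hochberg adjusted p = 0.0924). These products are shared by most neurons and do not single out sensory ones. With the marker scaling 5 of the 12 were called lower, and leaving out control replicate 1 or 2, or deficient replicate 2 or 3, in that order, the number was 0 (10 with an unadjusted p under 0.05 by edgeR), 3, 1 and 0 (8 with an unadjusted p under 0.05).

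**Figure D4:**
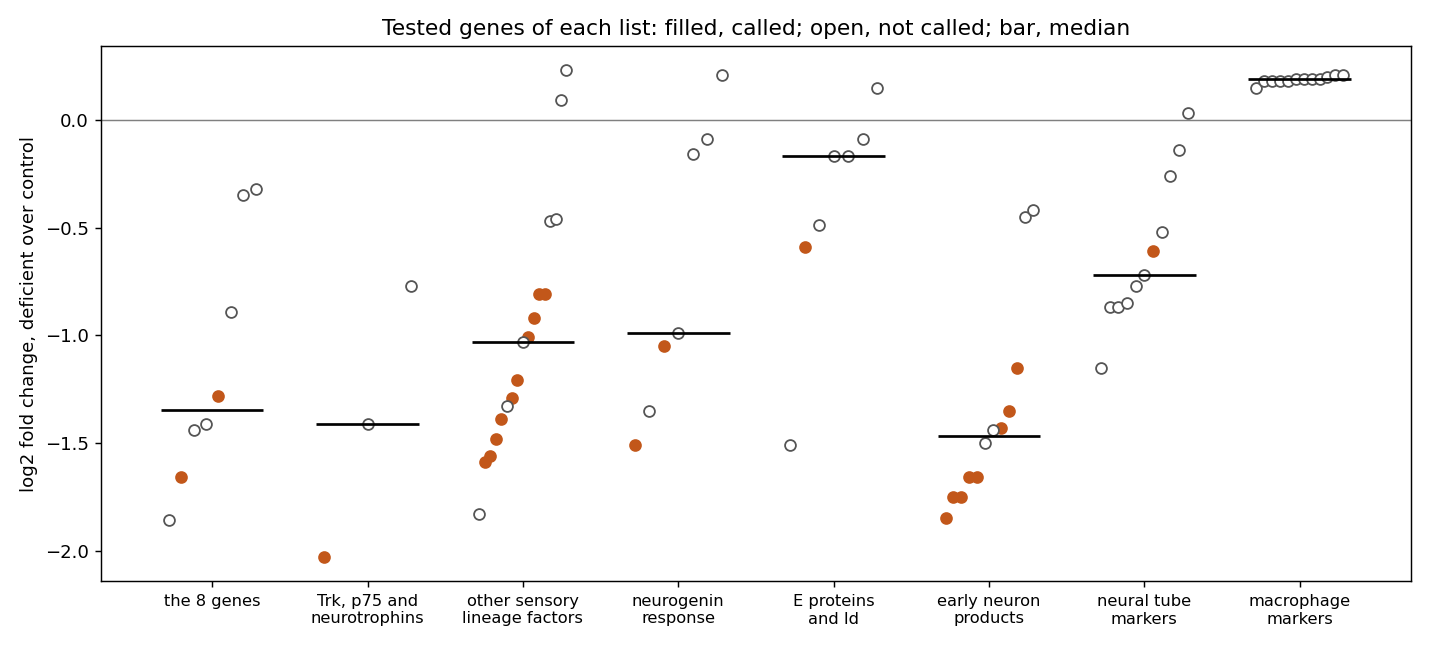
Log2 fold change, deficient over control, of every tested gene of the 8, of the 5 companion lists and of the neural tube and macrophage markers. Filled points were called, open points were not, and the bar is the median of the list. Medians of the lists plotted run from −1.47 for the early neuron products to 0.19 for the macrophage markers, and with libraries scaled to embryonic markers all values shift upward along with the median of all genes, which moves to 0.77.

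Over the 6 libraries the log2 levels of Pou4f1 and Ntrk3 had the highest correlation of any pair of the 8 (Pearson r = 0.99), followed by Pou4f1 with Isl1 (r = 0.97). Isl1 had r = 0.96 with Neurod1 as well as with Neurod4, and Neurod1 with Neurod4 had r = 0.95. Neurog2 stood furthest from the rest, with r between 0.24 (Neurod1) and 0.70 (Neurog1). These are descriptions over 6 libraries that share the difference between the groups and the order of the controls. Among 10941 other protein coding genes with a mean of at least 2 CPM, the 10 closest to the mean profile of the 8 were Acat2, Fgd1, D430019H16Rik, Prrc2b, Cd24a, Hnrnpa0, Nrcam, Col27a1, Tead2 and Elavl3, with r between 0.996 and 0.999. Most of them are not confined to neurons, Elavl3 and Nrcam being the neuronal ones by their known expression. Of the 10, D430019H16Rik (−1.22) and Nrcam (−1.01) were called lower.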

How the data were processed

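RNA of GFP-positive NCCs was sequenced in 3 control and 3 deficient libraries, grouped by their titles. The authors deposited whole-number counts per gene without normalization. Per the methods and the submitters' processing notes, strand-specific poly(A) libraries were trimmed (cutadapt 1.18; FastQC 0.11.7), aligned as paired-end reads to GRCm38 with STAR and counted with featureCounts. Which annotation release and strand option were used, and what was done with reads of several matches, is not given in the sources used here. Identifiers were matched to GENCODE M21 without their version (46488 of 46983 genes, 37902 with an identical version), and genes without a name held at most 0.0706% of the counts of a library. Depth is given with the results.

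R 4.3.3 and edgeR 4.0.16 were used: filterByExpr (minimum count 10, minimum total count 15), TMM, and a robust quasi-likelihood fit with condition as the only term, over 13961 genes with Benjamini-Hochberg adjustment. Calls followed the study's thresholds: adjusted p up to 0.1, log2 fold change of 0.58 or more in size, mean level of 2 CPM or more. Standard errors were derived from the F statistic of that fit. The biological coefficient of variation was 12.8% in common. Profiles used log2 CPM with a prior count of 2. Exact two-sided permutation tests of 3 against 3 libraries cannot go below p = 0.1. Spreads from counting assume Poisson counts and cover counting error only.

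The 8 genes and all gene lists were chosen with earlier results of these data known. Named are the 8, Smarcc1, Smarcc2, Ntrk2 and Ngfr, every called gene of each companion list (filled up to 5 by size of change at 2 CPM or more), the markers used to check cell types, and the 10 protein coding genes closest to the mean profile of the 8, and some genes of the lists are counted but not reported here by name. Alternatives were DESeq2 1.42.0, limma-voom (limma 3.58.1, the package the study used), library totals, scaling to the median level of 25 embryonic markers that are not sensory, other filters and thresholds, a replicate block, a correction for exon length (lowess span 0.3) and each library left out in turn, when the group of 2 shares the estimate of spread. Scripts were tested on simulated counts with known changes. Figures were drawn with Python 3.11.15 and matplotlib 3.10.9.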

Additional observations from a re-analysis of the deposited data

How the results depend on the processing

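The number of the 8 genes called lower was 2 and became 5 with DESeq2, 1 with limma-voom, 4 with library totals, 5 with no filter on low counts, 4 with the replicate block, and 0 with scaling to embryonic markers, with a filter at a mean of 2 CPM (6 tested, 5 with an unadjusted p under 0.05 by edgeR) or at an adjusted p of at most 0.05. With each library left out it ran from 0 to 5. The number of all genes called lower moved too, from 681 to 871 with DESeq2, 829 with limma-voom, 689 with library totals, 982 of 32523 with no filter and 517 of 11774 with the filter at 2 CPM, and it ran from 0 to 1219 with a library left out. The median log2 fold change of the 8 was −0.47 with the marker scaling and ran from −1.55 to −0.77 with a library left out. The sign was reversed with the marker scaling for Neurog1 (0.46), Neurog2 (0.42), Ntrk2 (0.02), Smarcc1 (0.10) and Smarcc2 (0.68). The scaling called 117 genes lower and 7717 higher.

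Among single genes, Pou4f1 gained a call with DESeq2 (−0.88), library totals (−0.80), no filter (−0.83), the replicate block (−0.81) and without control replicate 3 (−1.16). Neurod1 gained a call with DESeq2 (−1.88), library totals (−1.76), no filter (−1.81), the length correction (−1.88) and without control replicate 3 (−2.29). Ntrk3 gained a call with DESeq2 (−1.41), no filter (−1.36), the replicate block (−1.25) and without control replicate 3 (−1.80). Prdm12 was called on adjusted p alone (−1.44). With each library left out in turn, values ran from −1.16 to −0.44 for Pou4f1, −2.29 to −1.07 for Neurod1 and −1.80 to −0.76 for Ntrk3. Isl1 lost its call with limma-voom (−1.15), the marker scaling (−0.44), the filter at 2 CPM (−1.32) and at an adjusted p of 0.05 (−1.28). Neurod4 lost its call with the marker scaling (−0.83), the filter at 2 CPM (−1.69) and at an adjusted p of 0.05 (−1.66). Both also lost it without control replicate 1 or 2 or deficient replicate 2 or 3. There Isl1 ran from −1.38 to −0.79 and Neurod4 from −1.88 to −1.07. Both kept it without control replicate 3 (−1.60 and −1.92) and without deficient replicate 1 (−1.59 and −2.12). The cause of these gains and losses was not tested.

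Counts called lower in the companion lists moved as follows. Trk, p75 and neurotrophin genes: 2 with DESeq2 or no filter, 3 with the replicate block, 0 at an adjusted p of 0.05, 0 to 2 with a library left out. Other sensory factors: 3 with the marker scaling, 6 with the filter at 2 CPM, 2 at an adjusted p of 0.05, 0 to 12 with a library left out. Neurogenin response genes: 0 with the marker scaling or at an adjusted p of 0.05, 0 to 3 with a library left out. E protein and Id genes: 0 with DESeq2, library totals, the marker scaling, no filter or the length correction, 2 on adjusted p alone, 0 to 2 with a library left out. Early neuron products: 5 with the marker scaling, 0 at an adjusted p of 0.05, 0 to 11 with a library left out.

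Libraries with the same replicate number deviated together with r = 0.03, −0.03 and 0.29, so the numbers were not taken to pair them, and the replicate block raised the calls among all genes from 681 lower to 1143 lower. Neurog1, Neurod1, Neurod4 and Prdm12 had at most 22 counts in any deficient library, which limits the precision of their values.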
